A study of Mus musculus with 16 samples.

Results

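The Htr2c gene, which encodes the serotonin 2C receptor, carries a row of miRNA hairpins. The 9 mature miRNAs described here are arms of 5 of these hairpins and have the names mmu-miR-764-5p, mmu-miR-764-3p, mmu-miR-1912-3p, mmu-miR-1264-5p, mmu-miR-1264-3p, mmu-miR-1298-5p, mmu-miR-1298-3p, mmu-miR-448-5p and mmu-miR-448-3p, with mmu for mouse, out of 1881 mouse miRNAs on the array. The array also measures miR-1912-5p, which was not among the members and was detected on 0 of the 16 arrays. They were chosen by their host gene, at a time when the detection calls and genotype differences of these same arrays were known, so the detection counts and the differences between genotypes are given as a description. Expression was measured with 1-colour Agilent miRNA arrays in the wall of the lateral ventricle (LV wall) of male mice aged 8 months, and each array held the RNA of 1 mouse. The groups were 8 wild-type (WT) mice and 8 Dgcr8+/- littermates, which lack 1 copy of Dgcr8 in every cell and were bred on the C57BL/6J background. The study used the arrays to find miRNAs that change when Dgcr8 is haploinsufficient. The LV wall holds ependymal cells, neurons, glia and vessels, and bulk RNA was measured, so that fewer cells of a type and less miRNA per cell cannot be told apart.

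In the nucleus, the Microprocessor, made of the RNA-binding protein Dgcr8 and the nuclease Drosha, cuts hairpins out of primary transcripts. Dicer then frees a short duplex, and either strand, the 5p or the 3p arm, can become the mature miRNA. MiRNAs that lie within a protein-coding gene on the same strand can be cut from the transcript of that host gene. Htr2c is best known for its high expression in the epithelium of the choroid plexus, the tissue that secretes cerebrospinal fluid into the ventricles, and is also expressed in neurons. A miRNA finds its targets mainly through its seed, bases 2 to 8 counted from the 5′ end. The arrays measured mature miRNAs, so neither the Htr2c mRNA nor the Dgcr8 mRNA, which would check the genotype, has a value here.

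In the RefSeq gene table of the GRCm38.p6 assembly, the hairpins lie on chromosome X within the bounds of Htr2c in the order Mir764, Mir1912, Mir1264, Mir1298 and Mir448, all on the + strand. RefSeq gave a mature sequence for 8 of the 9 members, printed 5′ to 3′ with the seed in capitals, and the only member named without one is miR-1264-5p. They are shown because they let a reader see that members of 1 host gene are not a seed family. MiR-153-3p, which is not hosted by Htr2c, is printed last for comparison with miR-448-3p.
miR-764-5p: gGUGCUCAcauguccuccu
miR-764-3p: aGGAGGCCauaguggcaacugu
miR-1912-3p: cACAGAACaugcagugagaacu
miR-1264-3p: cAAAUCUUauuugagcaccugu
miR-1298-5p: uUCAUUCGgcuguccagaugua
miR-1298-3p: cAUCUGGGcaacugauugaacu
miR-448-5p: gAACAUCCugcauagugcugcc
miR-448-3p: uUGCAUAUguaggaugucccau
miR-153-3p: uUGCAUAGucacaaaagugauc

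No seed was shared among the 8 members. Against the other mature mouse miRNAs of the table, the seed of miR-764-3p was also that of miR-7062-5p, and the other 7 members had a seed of their own. MiR-448-3p shared bases 2 to 7 with miR-153-3p and miR-6335, miR-1298-5p shared them with miR-12187-3p, and miR-448-5p shared them with miR-499-3p.

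Before the values, the arrays themselves differed. The software detected 495 to 540 miRNAs in WT mice and 467 to 492 in Dgcr8+/- mice, and the summed signal of the miRNA spots had a median of 23929690 in WT and 21437171 in Dgcr8+/- mice. Dgcr8+/- replicate 2 had the lowest summed signal, 18528866, and the lowest signal of the hybridisation spike-ins, RNAs added in equal amounts to each array, at 4.13 on a log10 scale against 4.49 to 4.83 on the other arrays. Slide 1 held 6 WT and 2 Dgcr8+/- arrays, and slide 2 held 2 WT and 6 Dgcr8+/- arrays. Of the 1881 miRNAs, 1316 were detected on 0 of the 16 arrays and 430 on all 16. The number of arrays limits the precision of every value here.

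Of the 9 Htr2c-hosted miRNAs, 6 were detected in at least 1 mouse, and 5 of these in fewer Dgcr8+/- than WT mice. MiR-1298-3p was detected in all 16 mice. MiR-764-5p was detected in 8 WT mice and in 7 Dgcr8+/- mice, all but replicate 2. MiR-1298-5p was detected in 8 WT mice and in 5 Dgcr8+/- mice, all but replicates 1, 2 and 3. Thus both arms of miR-1298 and the 5p arm of miR-764 were the members with a level in most mice.

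MiR-764-3p and miR-1264-5p were each detected in 6 WT mice and in 0 Dgcr8+/- mice. MiR-448-3p was detected in 3 WT mice, replicates 4, 7 and 8, and in 0 Dgcr8+/- mice. The remaining 3 members, miR-1912-3p, miR-1264-3p and miR-448-5p, were not well above background on any array. The 5p arm of miR-1264 and the 3p arm of miR-448 reached detection in WT mice, and their partner arms reached it in none of the 16. A difference in detection need not be a difference in level. After quantile normalization, the mean log2 signals of the 5p and 3p arms in WT mice were 2.74 and 2.57 for miR-1264, and 0.52 and 2.27 for miR-448.

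A detection call is a total gene signal of more than 3 times its error, and the members lay close to this limit. On the arrays where it was detected, the ratio was 3.00 to 4.09 for miR-764-3p, 3.03 to 4.52 for miR-1264-5p and 3.07 to 4.87 for miR-448-3p. It reached 8.73 for miR-764-5p, 6.97 for miR-1298-5p and 9.01 for miR-1298-3p. Of the 5 members detected on 1 to 15 arrays, 5 were detected on more WT than Dgcr8+/- arrays, and 77.8% of the 135 miRNAs of the whole array with such partial detection were as well.

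**Figure D1:**
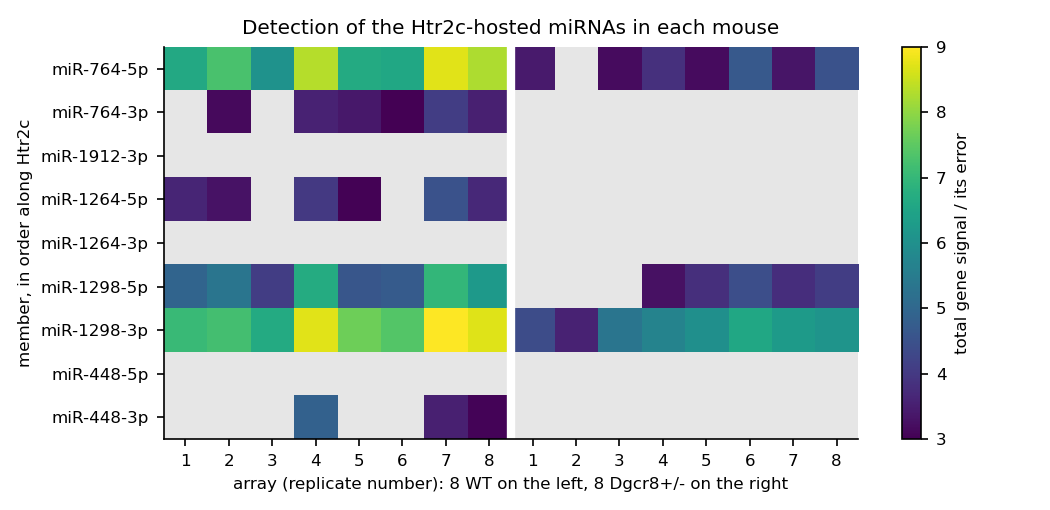
Each row is a member in its order along Htr2c and each column an array, with 8 WT mice on the left and 8 Dgcr8+/- mice on the right. Colour gives the total gene signal divided by its error where the software detected the miRNA, and grey cells were not detected. MiR-1298-3p is coloured in all 16 columns, whereas miR-764-3p, miR-1264-5p and miR-448-3p are coloured in WT columns alone.

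The 3 members detected on at least 8 of the 16 arrays entered the comparison of genotypes, and all 3 had lower signal in Dgcr8+/- mice. Values are log2 signals after quantile normalization between arrays, and every difference is Dgcr8+/- minus WT. In this bulk tissue the differences ranged from −0.54 to −0.64, or 64.0% to 68.8% of the WT level. The 3 were past an adjusted p of 0.05 in limma over all 495 miRNAs tested, as were 27.9% of those 495 in the lower direction, and since the differences were known when the members were chosen, nothing is read from this count. A further 140 of the 495 were higher, and the median difference over all 495 was 0.04.

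The log2 signal of miR-764-5p had a lowest value of 3.31, a median of 3.62 and a highest value of 3.87 in WT mice, and the corresponding values in Dgcr8+/- mice were 2.29, 3.06 and 3.47. The groups overlapped, with 6 of 8 Dgcr8+/- mice below the lowest WT mouse and 8 of 8 below the WT median. The means were 3.62 ± 0.19 (SD, n = 8) for WT and 3.03 ± 0.36 (SD, n = 8) for Dgcr8+/- mice. The difference was −0.59 with a standard error of 0.14.

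For miR-1298-5p, the lowest, median and highest log2 signals were 3.55, 3.92 and 4.25 in WT mice and 2.40, 3.35 and 3.96 in Dgcr8+/- mice. Again 6 of 8 Dgcr8+/- mice lay below the lowest WT mouse, but replicate 6, the highest of its group, lay above the WT median. The means of the 8 mice were 3.89 ± 0.24 (SD) and 3.24 ± 0.51 (SD), a difference of −0.64 with a standard error of 0.18.

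For miR-1298-3p, the lowest, median and highest log2 signals were 4.34, 4.61 and 4.96 in WT mice and 3.44, 4.14 and 4.66 in Dgcr8+/- mice. Here too 6 of 8 Dgcr8+/- mice lay below the lowest WT mouse and replicate 6 lay above the WT median. The means of the 8 mice were 4.63 ± 0.20 (SD) and 4.09 ± 0.39 (SD), a difference of −0.54 with a standard error of 0.14. In none of the 3 members were the groups fully apart, as all 8 Dgcr8+/- mice were below all 8 WT mice for 0 of 3 members and for 17.2% of the 495 miRNAs.

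Both arms of miR-1298 were lower to a similar degree. Taken within each mouse, the log2 signal of the 5p arm minus that of the 3p arm changed by −0.10 between genotypes (standard error 0.08), less than the SD of 0.13 among WT mice and 0.17 among Dgcr8+/- mice for this quantity. The 95% confidence interval of this change was −0.27 to 0.06 (pooled variance of the 8 and 8 mice).

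Of the 6 members that failed the detection filter, 3 were detected in WT mice alone, and their means are set against a floor. This was done only for members detected in WT mice alone, so the direction was fixed in advance. The other 3 were detected in neither genotype and have no such value. Their signals without detection could still differ. For miR-1264-3p the difference was −0.47, with 8 of 8 Dgcr8+/- mice below the lowest WT mouse, and for miR-448-5p it was −0.52. MiR-448-5p was at 0.00 on every Dgcr8+/- array. Lower signal without detection was not particular to the members. MiR-204-3p, which Htr2c does not host, had no detection and means of 1.81 in WT and 0.83 in Dgcr8+/- mice. For miR-144-5p, also without detection, they were 1.45 and 1.12. MiR-449a-3p, miR-449b, miR-449c-5p and miR-449c-3p were at 0.00 in both groups. How often such a shift appeared over all miRNAs without detection was not counted, so nothing is read from it. MiR-1912-3p had a log2 signal of 0.00 on every array. MiR-764-3p had a lowest, median and highest log2 signal of 1.61, 2.21 and 2.69 in WT mice and of 0.00, 1.28 and 1.98 in Dgcr8+/- mice. Set against the floor, its mean was lower by 1.69-fold, a value that makes no allowance for the spread among mice. This value sets the WT mean over all 8 arrays, 6 of them with detection, against a floor averaged over the Dgcr8+/- arrays. The floor of an array is the dimmest signal of any miRNA with a detection call there, or the member's own signal if brighter. It is not the detection limit of the member itself, so the value is not a firm bound.

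MiR-1264-5p had log2 signals of 2.31, 2.80 and 3.16 (lowest, median and highest) in WT mice and of 1.98, 2.28 and 2.60 in Dgcr8+/- mice. It was detected on 6 WT arrays. Its own signal was not below the floor on any Dgcr8+/- array, so its 1.36-fold lower value is the observed difference of means. MiR-448-3p had log2 signals of 1.60, 2.34 and 2.85 in WT mice and of 0.41, 1.47 and 1.93 in Dgcr8+/- mice. Set against the floor, its mean was lower by 1.75-fold, with detection on only 3 WT arrays. This too is not a firm bound, as miR-448-3p was not detected at 2.45 in WT replicate 2 but was detected at 2.08 in WT replicate 7. For each of these members all 8 Dgcr8+/- mice lay below the WT median, and the groups overlapped.

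**Figure D2:**
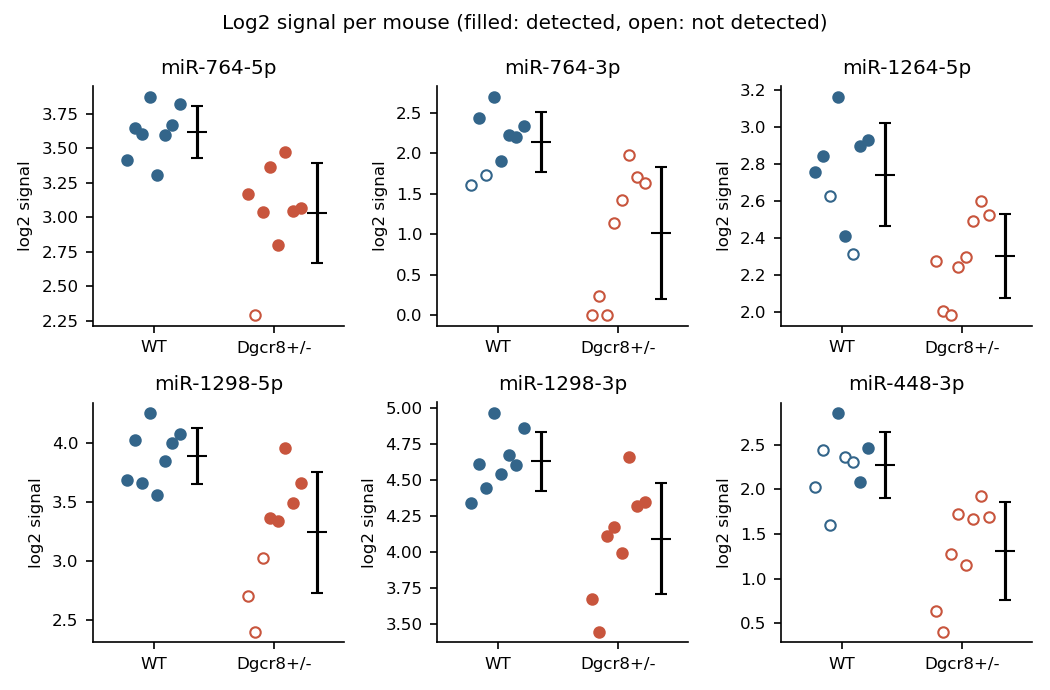
Log2 signal after quantile normalization (vertical axis, a separate scale in each panel) of the 6 members detected in at least 1 mouse, with 1 point per mouse and replicates 1 to 8 from left to right. Filled points were detected and open points were not, and the black mark and bar give the mean and SD of the 8 mice. The Dgcr8+/- points sit lower in every panel and overlap the WT points in every panel.

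Most probes of the members were lower, but the member values are means of these probes, so this is not separate support. The share over all probes was not counted. Both probes of miR-1298-5p (−0.79 and −0.59), both of miR-1298-3p (−0.43 and −0.57) and 3 of 4 of miR-764-5p (−0.63 to −0.61) had lower signal in Dgcr8+/- mice. The fourth probe of miR-764-5p had a difference of 0.35. It was above the floor on only 8 arrays, with mean signals of 1.02 in WT and 1.36 in Dgcr8+/- mice. For miR-448-3p, 4 of 4 probes were lower, with differences from −1.11 to −0.01. The probe at −0.01 was above the floor on only 2 arrays and so has no clear direction. For miR-764-3p, 3 of 4 were lower and the fourth was at the floor of 1 signal unit on every array, and for miR-1264-5p 1 probe gave −0.52 and the other 0.08.

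The way the arrays were processed changed the sizes of these differences and, in the alternatives run, not their direction. With no normalization between arrays, they were −0.97 for miR-764-5p, −1.003 for miR-1298-5p and −0.90 for miR-1298-3p, when the median over all 495 miRNAs was −0.39. With each array scaled to its 75th percentile they were −0.43, −0.47 and −0.36, with an overall median of 0.14. Relative to the overall median, the 3 members were thus lower under each of these scalings. A normexp background correction, which adds an offset of 50 and so compresses signals as dim as these, gave −0.08, −0.10 and −0.13.

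The difference was present on both slides. On slide 1 it was −1.06 for miR-764-5p, −0.98 for miR-1298-5p and −0.92 for miR-1298-3p, with 6 WT and 2 Dgcr8+/- arrays, of which 1 was Dgcr8+/- replicate 2. On slide 2 it was −0.46, −0.64 and −0.39, with 2 WT and 6 Dgcr8+/- arrays. With the slide as a block in the fit, the values were −0.76, −0.81 and −0.66. Without Dgcr8+/- replicate 2, they were −0.48, −0.52 and −0.45.

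**Figure D3:**
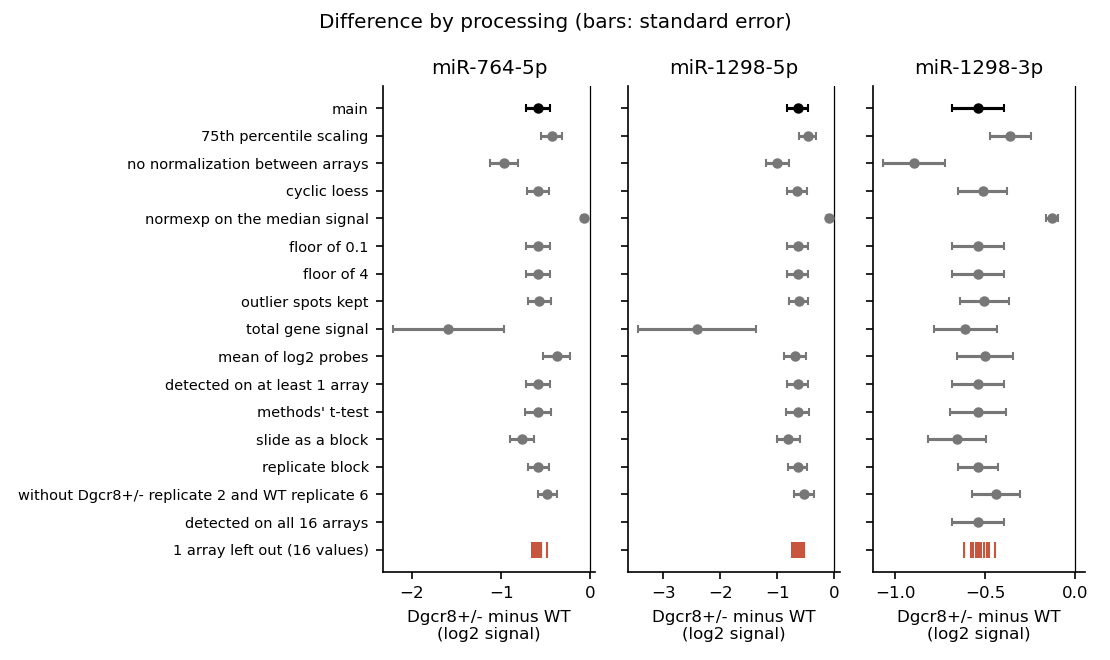
Difference in log2 signal between Dgcr8+/- and WT mice (horizontal axis, a separate scale in each panel) for the 3 members compared, under each way of processing on the vertical axis. Points are fitted differences, bars are standard errors, black marks the values reported, and the red ticks are the fits with each of the 16 arrays left out in turn. Every value lies below 0 and is nearest to it for the normexp correction. The farthest is the total gene signal, where arrays without detection are set to 0.1, for miR-764-5p and miR-1298-5p, and no normalization between arrays for miR-1298-3p.

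The next comparison asked whether the members varied together from mouse to mouse, as arms cut from a single host transcript could. WT replicate 4 had the highest log2 signal of its group for 6 of the 6 members detected in at least 1 mouse. Among Dgcr8+/- mice, replicate 6 was highest for 4 of the 6 members and replicate 7 for the other 2, and replicate 2 was lowest for 4. How often these mice were highest or lowest over all miRNAs was not counted, so nothing is read from these counts. Only 1 member was detected on all 16 arrays, so the 3 members that passed the filter were correlated in its place, a choice made after the data were seen. This gave 3 pairs in each genotype, or 6 correlations, with 2-sided exact permutation p-values that are also adjusted by Benjamini-Hochberg over the 6.

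In WT mice, the 2 hairpins and the 2 arms rose and fell together. Across the 8 WT mice, miR-764-5p and miR-1298-5p had a Pearson r of 0.91 (exact permutation p = 0.000670, adjusted 0.00201) and a Spearman rho of 0.90 (exact permutation p = 0.00456, adjusted 0.0137). MiR-764-5p and miR-1298-3p had an r of 0.81 (exact permutation p = 0.0154, adjusted 0.0231) and a rho of 0.74 (exact permutation p = 0.0458, adjusted 0.0687). The 2 arms of miR-1298 had an r of 0.84 (exact permutation p = 0.00962, adjusted 0.0192) and a rho of 0.83 (exact permutation p = 0.0154, adjusted 0.0308).

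Without the 2 mice farthest from the median of the first-named member, the 3 values of r in WT mice were 0.79, 0.90 and 0.83 (adjusted exact permutation p = 0.0542 for each, n = 6), and within the 6 WT arrays of slide 1 it was 0.93, 0.83 and 0.91. As a background, pairs were taken among 428 of the 430 miRNAs detected on all 16 arrays, without 2 that had a constant value over the WT arrays. These 91378 pairs had a median r of −0.01 in WT mice, with quartiles of −0.33 and 0.33 and a 90th percentile of 0.61. Of the 3 members, only miR-1298-3p was detected on all 16 arrays. The 3 are among the 165 dimmest of the 495 miRNAs tested, and a background of equally dim miRNAs was not computed in either genotype. In WT mice the members followed the array measures only loosely, with r from 0.09 to 0.23 for the log2 summed signal and from 0.07 to 0.16 for the hybridisation spike-ins over the 3 members.

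In Dgcr8+/- mice the 2 arms of miR-1298 still moved as a pair, with an r of 0.97 (exact permutation p = 0.000298, adjusted 0.00179) and a rho of 0.98 (exact permutation p = 0.000397, adjusted 0.00238) over 8 mice. Without Dgcr8+/- replicate 2 the r was 0.94, without the 2 mice farthest from the median it was 0.87, and within the 6 arrays of slide 2 it was 0.97. The pairs across hairpins had lower values. MiR-764-5p had an r of 0.69 with miR-1298-5p (exact permutation p = 0.0546, adjusted 0.0546) and a rho of 0.62 (exact permutation p = 0.115, adjusted 0.115).

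With miR-1298-3p, miR-764-5p had an r of 0.74 in Dgcr8+/- mice (exact permutation p = 0.0343, adjusted 0.0411) and a rho of 0.64 (exact permutation p = 0.0962, adjusted 0.115). Both relations across hairpins rested on the mice farthest from the median, replicate 2 above all. Without replicate 2, r was 0.34 with miR-1298-5p and 0.45 with miR-1298-3p, without the 2 mice farthest from the median it was −0.14 and 0.0084, and within slide 2 it was 0.43 and 0.38. Whether the correlations differed between genotypes was not tested.

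Array measures moved with the members in Dgcr8+/- mice. Over the 8 mice, the r with the hybridisation spike-ins was 0.82 for miR-764-5p, 0.68 for miR-1298-5p and 0.71 for miR-1298-3p, and without replicate 2 it was 0.15, 0.17 and 0.39. The r with the log2 summed signal was 0.35, 0.76 and 0.74, and without replicate 2 it was −0.42, 0.58 and 0.54. The background of all pairs was also wider than in WT mice, with quartiles of −0.55 and 0.56 and a 90th percentile of 0.81. Over the 8 mice, the r of miR-764-5p with either arm of miR-1298 lay below this percentile. The part of these measures in the correlations among members was not tested.

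**Figure D4:**
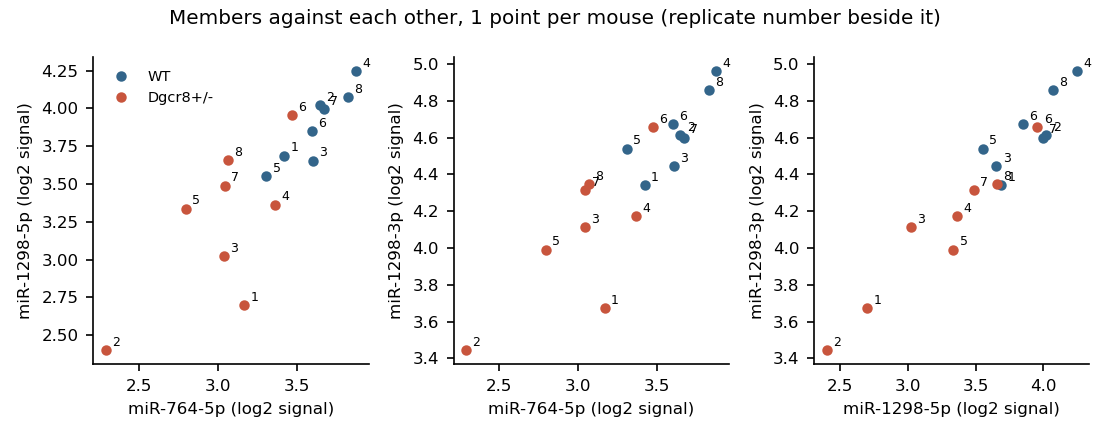
Log2 signals of the 3 members against each other, 1 panel per pair, with 1 point per mouse, its replicate number beside it, WT in blue and Dgcr8+/- in red. In the first 2 panels the WT points follow a line (r = 0.91 and 0.81) and the red points depend on replicate 2 at the lower left, whereas in the last panel, of the 2 arms of miR-1298, both colours follow a line (r = 0.84 and 0.97).

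Because Htr2c is high in choroid plexus, the members were set beside miR-204 and miR-211, miRNAs known to be abundant in choroid plexus epithelium. Of this list of 4, 3 were detected widely enough to be tested, 1 was lower and 1 was higher in the mutants at the limma threshold, and the median difference was 0.00. MiR-204-5p, with log2 signals of 9.25 ± 0.16 (SD, n = 8) in WT and 8.95 ± 0.22 (SD, n = 8) in Dgcr8+/- mice, fell by 0.29 (standard error 0.09, adjusted p = 0.0136 from limma). MiR-211-5p had a difference of 0.00 (standard error 0.11, adjusted p = 0.989 from limma), and miR-211-3p rose by 0.50 (standard error 0.08, adjusted p = 7.56e-05 from limma). MiR-204-3p was not well above background on any array. The tested miRNAs of this list thus had no common direction.

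From mouse to mouse, miR-1298-3p, the member detected in all 16 mice, had an r of 0.60 with miR-204-5p in WT mice and 0.65 in Dgcr8+/- mice, and 0.32 in the latter without replicate 2. Its r with miR-211-5p was 0.34 in WT mice and −0.73 in Dgcr8+/- mice, and −0.45 without replicate 2. With miR-211-3p it was −0.34 in WT mice and −0.76 in Dgcr8+/- mice, and −0.52 without replicate 2. With the mean of the choroid plexus list, the r of the 3 members was 0.28 to 0.46 in WT mice and −0.79 to −0.56 in Dgcr8+/- mice, where without replicate 2 it was −0.36 to −0.02. These correlations, and those with the lists that follow, are descriptions over 8 mice of arrays that share their normalization.

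For the miR-34 and miR-449 families, known from multiciliated cells such as the ependyma, 4 of the 5 tested miRNAs were arms of miR-34b and miR-34c. The r of the 3 members with the mean of this list was −0.89 to −0.80 in WT mice, −0.23 to −0.08 in Dgcr8+/- mice, and −0.60 to −0.49 in the latter without replicate 2. The only tested miRNA of the miR-449 family, miR-449a-5p, differed from this mean, with r of −0.13, −0.32 and −0.38 with miR-764-5p, miR-1298-5p and miR-1298-3p in WT mice and of 0.73, 0.85 and 0.83 in Dgcr8+/- mice (−0.07, 0.80 and 0.73 without replicate 2). WT replicate 4, with the highest members, had the lowest mean of the list, 5.65, against a WT maximum of 6.71. Of its 9 miRNAs 5 were tested and 0 were past the adjusted threshold in limma or in the methods' t-test, with 1, miR-34c-5p, at an unadjusted p below 0.05 from limma and a median difference of 0.29. These differences were 0.28 for miR-34b-5p, 0.29 for miR-34b-3p, 0.35 for miR-34c-5p, 0.31 for miR-34c-3p and 0.15 for miR-449a-5p. MiR-449a-3p, miR-449b, miR-449c-5p and miR-449c-3p were detected on 0 arrays.

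The list of neuronal miRNAs had an r with the 3 members of 0.03 to 0.46 in WT mice and of 0.75 to 0.84 in Dgcr8+/- mice, and of 0.38 to 0.70 in the latter without replicate 2. Of its 6 miRNAs, 2 were lower and 1 was higher at the adjusted threshold of limma, and the range of its mean was 11.62 to 11.78 in WT mice and 11.67 to 11.78 in Dgcr8+/- mice. For oligodendrocytes, 0 of 3 were lower and 1 was higher, with r from −0.45 to −0.28 in WT and −0.43 to −0.08 in Dgcr8+/- mice, and −0.70 to −0.33 without replicate 2. For blood vessels, 0 of 4 were lower and 2 were higher, with r from −0.50 to −0.28 and −0.39 to −0.34, and 0.0018 to 0.18 without replicate 2. For microglia and immune cells, 1 of 4 was lower and 1 was higher, with r from 0.07 to 0.30 and 0.66 to 0.68, and 0.40 to 0.48 without replicate 2. For red blood cells, 0 of 2 tested passed limma in either direction, also unadjusted or by the methods' t-test, with r from −0.19 to 0.14 and 0.40 to 0.82, and −0.28 to 0.68 without replicate 2. The part of cell composition in the differences of the Htr2c-hosted miRNAs was not tested.

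**Figure D5:**
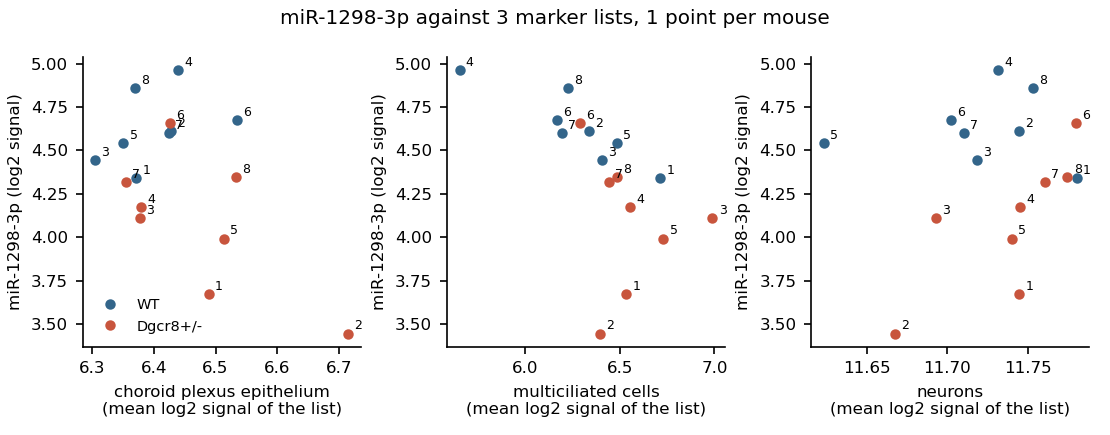
Log2 signal of miR-1298-3p (vertical axis) against the mean log2 signal of 3 lists of marker miRNAs (horizontal axes), with 1 point per mouse, its replicate number beside it, WT in blue and Dgcr8+/- in red. In the middle panel the WT points fall from replicate 4 at the upper left to replicate 1 at the lower right, and in the left panel Dgcr8+/- replicate 2 stands alone at the lower right.

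The miRNAs whose pattern over the 16 mice was most like that of miR-1298-3p were listed after the mean of each genotype was subtracted. Among 429 other miRNAs detected on all 16 arrays, miR-541-5p had the highest r, 0.92. It was followed by miR-369-5p with 0.88, miR-137-3p with 0.88, miR-335-3p with 0.87 and miR-485-5p with 0.87. None is of the choroid plexus list, but only 3 of the 429 were, so nothing is read from this. Without Dgcr8+/- replicate 2, the r over 15 mice was 0.88, 0.81, 0.83, 0.82 and 0.79, respectively. Over all 429, r had a median of −0.01 and a lowest value of −0.85. MiR-541-5p, miR-369-5p and miR-485-5p come from the imprinted miRNA cluster of the Meg3 and Mirg region, miR-335 lies in an intron of the imprinted gene Mest, and miR-137 is enriched in neurons.

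In the comparison of genotypes, 4 of these 5 were lower in Dgcr8+/- mice, by −0.54 for miR-541-5p (adjusted p = 3.05e-05 from limma), −0.36 for miR-369-5p (adjusted p = 0.00253), −0.58 for miR-335-3p (adjusted p = 5.51e-05) and −0.31 for miR-485-5p (adjusted p = 0.0209). Of all 495 miRNAs tested, 27.9% were lower at the adjusted threshold. The 5 were picked on these same arrays, so nothing is read from the count. MiR-137-3p had a difference of 0.10 (adjusted p = 0.0748 from limma). The r of miR-137-3p with miR-1298-3p was 0.70 in WT and 0.97 in Dgcr8+/- mice (0.94 without replicate 2). Other miRNAs of the neuronal list had the opposite sign, with r of −0.52 in WT and −0.84 in Dgcr8+/- mice for miR-124-3p (−0.68 without replicate 2) and of −0.44 and −0.73 for miR-138-5p (−0.36 without replicate 2), both named after their values were seen.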

How the data were processed

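Total RNA from the LV wall of 16 mice was labelled and hybridised by the authors to 1-colour Agilent mouse miRNA arrays. The authors deposited scanner output with a background-corrected intensity for each spot (gProcessedSignal), not normalized between arrays, from Feature Extraction 10.5.1.1 per the labels and 10.7.3.1 per the file headers. They also deposited a table of total gene signal intensity per miRNA, which equals the scanner files and was used as an alternative. No saturated spot was found.

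Groups were taken from the sample labels. Outlier-marked spots were dropped, spots averaged per probe, the 4415 probes quantile-normalized as the study's methods state, and probes averaged per miRNA. Values under 1 were set to 1 and log2 was taken. MiRNAs detected on at least 8 of 16 arrays, 495 in all, were fitted with limma 3.58.1 in R 4.3.3, with Benjamini-Hochberg adjustment over all 495 and a threshold of 0.05. The pipeline was tested on simulated data. Correlations were computed in Python 3.11.15 with NumPy 2.4.6, with all orderings of the mice as the exact permutation test.

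The members, the marker lists and the tests were chosen with earlier results of these data known. The named miRNAs are all members, all array miRNAs of the choroid plexus and multiciliated cell lists, and the 5 others most correlated with miR-1298-3p. Correlations among the 3 tested members, and of all 3 with the lists, replaced those of members detected on all 16 arrays, of which there was 1. Alternatives were other normalizations, background correction, floors, filters, summaries, the methods' t-test, slide and replicate blocks, and each array left out. Coordinates are not given because the array design and the RefSeq tables use different assemblies.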

Additional observations from a re-analysis of the deposited data

How the results depend on the processing

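The differences of miR-764-5p, miR-1298-5p and miR-1298-3p stayed below 0 under every alternative run, and stayed past the adjusted threshold of limma in all but 1 fit. With the total gene signal, in which arrays without detection are set to 0.1, the difference of miR-1298-5p was −2.41 (adjusted p = 0.0660 from limma), that of miR-764-5p was −1.59 and that of miR-1298-3p was −0.61. With each array left out in turn, the differences ranged from −0.65 to −0.48 for miR-764-5p, from −0.75 to −0.52 for miR-1298-5p and from −0.62 to −0.45 for miR-1298-3p. Without Dgcr8+/- replicate 2 and WT replicate 6, added after the data were seen, no call changed. The number of members lower was 1 when detection on all 16 arrays was required and 6 when 1 array sufficed, since the filter sets how many members are tested. The 3 added by the looser filter were detected in WT mice alone and passed it only through the group where they are high, so their direction was fixed by the filter. With no normalization between arrays, 293 miRNAs were lower and 0 higher (0 also unadjusted) from limma in place of 138 and 140, and with 75th percentile scaling 126 were lower and 210 higher. Counting a total gene signal over 3 errors restates the detection call of the software, so its equal counts say nothing about stability.

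For the correlations of miR-764-5p with miR-1298-5p, miR-764-5p with miR-1298-3p and the 2 miR-1298 arms, leaving out the 2 mice farthest from the median gave 0.79, 0.90 and 0.83 in WT mice (adjusted exact permutation p = 0.0542 for each, n = 6) and −0.14, 0.0084 and 0.87 in Dgcr8+/- mice. Within 1 slide, r of miR-764-5p with miR-1298-3p was 0.83 in WT and 0.38 in Dgcr8+/- mice, neither past the threshold after adjustment. In Dgcr8+/- mice, r of miR-764-5p with miR-1298-3p was 0.55 with 75th percentile scaling and 0.45 without replicate 2, and r of miR-764-5p with miR-1298-5p was 0.80, past the threshold, with no normalization.

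Same-numbered WT and Dgcr8+/- mice correlated in their deviations from the group means with r from −0.08 to 0.53, and 3 of 8 correlated best with their own number. These values do not settle whether the numbers mark pairs, and the main fit did not treat them as pairs. With the replicate number as a block, the differences were −0.59, −0.64 and −0.54, and no call of a member changed. The 3 tested members are among the 165 dimmest of the 495 miRNAs. How far signals this near to background limit the sizes or the directions was not tested.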
